A study of Arabidopsis thaliana with 6 samples.

Results

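The 8 actin genes of Arabidopsis thaliana that make up its reproductive and vegetative classes were followed in style tissue with pollen tubes grown in it. They were taken by identifier: ACT1 (AT2G37620), ACT3 (AT3G53750), ACT4 (AT5G59370), ACT11 (AT3G12110) and ACT12 (AT3G46520) form the reproductive class, and ACT2 (AT3G18780), ACT7 (AT5G09810) and ACT8 (AT1G49240) the vegetative class. All 8 were found among the 33323 genes of each count table, and all 8 passed the filter on low counts that left 18317 genes. The 2 genotypes compared had 3 libraries each: paps1-1 in the Col-0 background, and wild-type Col-0 (WT). PAPS1 encodes a nuclear poly(A) polymerase, which adds the poly(A) tail to new transcripts. Ages and growth conditions are not given in the labels, nor is it said which partner of the complex, tube or style, was mutant. The labels call the WT samples biological replicates and say nothing of the kind for paps1-1, so the p-values below speak of how these libraries vary, and that variation could be technical among the paps1-1 ones.

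Actin is the monomer of the microfilaments that carry vesicles to the tip of a growing pollen tube and organise streaming in every plant cell. Plant actins fall into a reproductive class, known mainly from pollen, pollen tubes and ovules, and a vegetative class, known mainly from leaves, stems, roots and floral organs other than pollen. Within these classes ACT1 and ACT3, ACT4 and ACT12, and ACT2 and ACT8 are the closest pairs, while ACT11 and ACT7 stand alone.

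The coding sequences are alike enough that reads from one gene could fall on another, so the first 60 coding bases are shown for each gene. They lie in 1 coding exon and were read from the RefSeq annotation of TAIR10.1, 5′ to 3′. Capitals mark a base that differs from the one most common among the 8 genes at that position, and a tie goes to the base met first in the order shown.
ACT1: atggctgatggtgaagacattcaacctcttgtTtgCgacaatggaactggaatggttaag
ACT3: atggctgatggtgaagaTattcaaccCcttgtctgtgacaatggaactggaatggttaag
ACT4: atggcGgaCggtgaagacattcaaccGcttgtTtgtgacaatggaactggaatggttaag
ACT11: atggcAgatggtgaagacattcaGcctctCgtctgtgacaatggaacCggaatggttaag
ACT12: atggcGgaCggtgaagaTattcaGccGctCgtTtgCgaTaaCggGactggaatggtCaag
ACT2: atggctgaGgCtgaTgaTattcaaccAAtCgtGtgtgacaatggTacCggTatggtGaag
ACT7: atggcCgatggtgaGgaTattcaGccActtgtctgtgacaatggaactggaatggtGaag
ACT8: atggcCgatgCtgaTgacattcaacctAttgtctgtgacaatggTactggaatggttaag
All 8 stretches are on the plus strand of TAIR10.1. They stand at chr2:15779761-15779820 for ACT1, chr3:19915924-19915983 for ACT3, chr5:23950109-23950168 for ACT4 and chr3:3858116-3858175 for ACT11. Those of ACT12, ACT2, ACT7 and ACT8 stand at chr3:17128567-17128626, chr3:6475535-6475594, chr5:3052809-3052868 and chr1:18216539-18216598. The number of bases marked ran from 2 in ACT1 and ACT3 to 12 in ACT12 and in ACT2.

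Over the whole coding sequence, 1134 bases in every member, the closest pairs were ACT2 with ACT8 (91.0% identical bases), ACT1 with ACT3 (90.5%) and ACT4 with ACT12 (87.9%). The least alike were ACT12 and ACT2, at 78.3%. The longest stretch without a difference at matching coding positions was 62 bases, between ACT4 and ACT12. Of the 50-base windows of each longest annotated transcript, between 0% (ACT2 and ACT7) and 0.821% (ACT4) occurred again elsewhere in the genome or in the transcripts of another of the 8 genes. Of the 100-base windows, 1656 to 2135 per gene, 0 did. Reads mapped to several places were counted apart from genes, and by this measure few exact reads of an actin gene would be among them. The read length was not known here.

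The libraries held 4541233 to 18717968 gene reads in paps1-1 and 13707799 to 21031017 in WT. The shallowest, paps1-1 replicate 2, also stood apart in that 74.6% of its reads mapped to several places, against 7.28% to 28.0% in the other 5 libraries. An 18S rRNA gene took 10.5% of the gene reads of paps1-1 replicate 2, against 0.110% to 0.732% in the other 5. A floor of 3 reads corresponded to at most 0.638 CPM (gene reads scaled by library size and TMM factor), so depth did not limit detection: the lowest actin count in any library was 395 reads, for ACT3 in paps1-1 replicate 2. The mutated gene PAPS1 stood at 88.4, 99.4 and 59.9 CPM in paps1-1 and at 143, 101 and 104 CPM in WT, and its log2 fold change of -0.49 (SE 0.28) did not pass (edgeR, adjusted p = 0.609). Marker lists, chosen with earlier results of these data known, fitted the label of a pollen tube and style complex in part. All 10 pollen and pollen tube markers were among the tested genes, with a summed level of 29002 to 41922 CPM in paps1-1 and 29633 to 70305 CPM in WT. Of these 10, 0 were called and 3 had an unadjusted p under 0.05 (edgeR), 1 of them higher and 2 lower in paps1-1. By the fitted value 9 of the 10 were lower in paps1-1, the median log2 fold change being -0.48. Of 10 style and transmitting tract markers 5 were tested, with a summed level for the list of 31.5 to 36.5 CPM in paps1-1 and 22.5 to 34.6 CPM in WT, and HEC1 and HEC2 had no read in any library. The list of 7 sperm cell markers had a summed level of 102 to 141 CPM in paps1-1 and 51.0 to 91.7 CPM in WT, without overlap. Log2 fold changes were positive for all 6 of its tested genes, the median being 0.86. Of these 6, 5 had an unadjusted p under 0.05 and 1 was called (edgeR), DAZ2, a transcription factor gene of the male germline named here after its values were seen (log2 fold change 1.95, SE 0.31, adjusted p = 0.00179). For the most abundant sperm markers the log2 fold change was 0.96 (SE 0.29, DMP9) and 0.39 (SE 0.29, MGH3), and neither passed. Beside these lists, 2.34% of all tested genes were called and 10.3% had an unadjusted p under 0.05 (edgeR). The median log2 fold change over all tested genes was 0.03, and 14.7% of them had groups that did not overlap. The part of the pollen and sperm cell markers in the actin values below was not tested. These lists hold genes of unlike function, so their levels do not give the share of any tissue or cell type.

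No actin gene passed the test between genotypes. Of the 8, 0 had an adjusted p under 0.05 in edgeR's quasi-likelihood fit, with Benjamini-Hochberg adjustment over 18317 genes, 1 had an unadjusted p under 0.05, and DESeq2 and limma-voom called 0 as well. Over all tested genes 2.34% were called and 10.3% had an unadjusted p under 0.05. Log2 fold changes of paps1-1 over WT ran from -0.69 (ACT12) to 0.33 (ACT1), 6 negative and 2 positive, with a median of -0.25 beside 0.03 over all tested genes. The approximate 95% intervals reached from -1.30 for ACT2 to 1.04 for ACT1 at their outer ends, so changes of about that size remain within the error of 3 libraries a genotype. In bulk tissue, fewer cells of a type and less RNA per cell cannot be told apart, which holds for every level below.

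**Figure D1:**
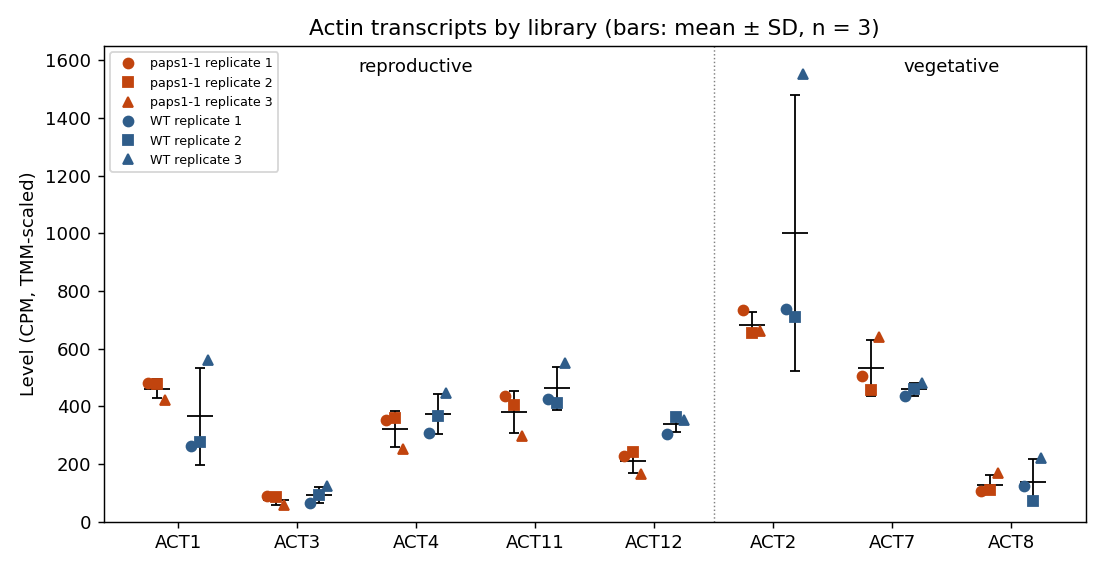
Level of each actin gene in every library (y axis, CPM after TMM scaling), with paps1-1 in orange left of WT in blue, marker shapes for replicates and bars for the mean ± SD of 3 libraries. ACT12 is the member whose paps1-1 values all lie below its WT values, and WT replicate 3 stands high for ACT2, at 1553 CPM.

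Among the reproductive genes, ACT12 differed most. It stood at 227, 242 and 164 CPM in paps1-1 and at 305, 361 and 354 CPM in WT, with means of 211 ± 41.6 CPM in paps1-1 and 340 ± 30.6 CPM in WT (SD, n = 3 each). All paps1-1 libraries lay below all WT libraries, which held for 1 of the 8 members. Over all tested genes 14.7% had groups that did not overlap, and 7.82% lay without overlap on the lower side in paps1-1. Its log2 fold change of -0.69 (SE 0.28, interval -1.29 to -0.09) had an unadjusted p of 0.0266 and an adjusted p of 0.357 (by edgeR), so it did not pass. ACT12 also lay among more called genes than the other members did: 7 of the 100 tested genes nearest to it in locus order were called, against 0 to 4 around each of the other 7 actin genes. Over all tested genes 2.34% were called. Whether its place bears on its value was not tested.

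ACT4, the close relative of ACT12, overlapped between genotypes. It stood at 353, 360 and 251 CPM in paps1-1 and at 308, 366 and 448 CPM in WT (log2 fold change -0.22, SE 0.29). ACT11, which forms a subclass of its own, stood at 437, 405 and 299 CPM in paps1-1 and at 427, 413 and 549 CPM in WT (log2 fold change -0.28, SE 0.29). For both, the lowest value was that of paps1-1 replicate 3 and the highest that of WT replicate 3.

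ACT1 was the reproductive member with a positive log2 fold change. Its levels were 481, 478 and 422 CPM in paps1-1 and 261, 277 and 560 CPM in WT. The paps1-1 libraries were close together, at 461 ± 33.1 CPM, and lay between WT replicates 1 and 2 on one side and WT replicate 3 on the other, at 366 ± 168 CPM for WT (SD, n = 3 each). The log2 fold change was 0.33 (SE 0.33, adjusted p = 0.854, by edgeR). It was 0.14 without WT replicate 1, 0.16 without WT replicate 2 and 0.75 without WT replicate 3, with adjusted p of 0.951, 0.891 and 0.225 by edgeR. ACT3, the sister gene of ACT1, had the lowest CPM per kb of the reproductive genes in every library. Its level was 89.5, 84.1 and 56.8 CPM in paps1-1 and 65.4, 91.3 and 122 CPM in WT (log2 fold change -0.28, SE 0.29).

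Among the vegetative genes, ACT2, the main actin of most leaf and root tissue, had the highest CPM per kb of exon of the 8 members in 5 of the 6 libraries, and ACT7 did in paps1-1 replicate 3. It stood at 734, 655 and 660 CPM in paps1-1 and at 739, 709 and 1553 CPM in WT. Apart from WT replicate 3 the 5 libraries spanned 655 to 739 CPM. The log2 fold change of -0.55 (SE 0.35, adjusted p = 0.696, by edgeR) was -0.11 when that library was left out.

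ACT7, a vegetative actin known to respond to auxin and to act in germination and root growth, stood at 504, 456 and 641 CPM in paps1-1 and at 436, 461 and 481 CPM in WT. The genotypes overlapped, and paps1-1 replicate 3 was the highest library (log2 fold change 0.22, SE 0.29). ACT8, which acts with ACT2 in root hair growth, varied more than 3-fold among the WT libraries alone: it stood at 106, 111 and 168 CPM in paps1-1 and at 124, 70.4 and 222 CPM in WT. Its log2 fold change was -0.11 (SE 0.36), and the sign turned without WT replicate 3 (0.37) and without paps1-1 replicate 1 (0.0096).

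WT replicate 3 had the highest level of the 6 libraries for 6 of the 8 actin genes, ACT7 and ACT12 being the exceptions. It also had the lowest TMM factor of the 6, 0.739 against 0.922 to 1.20 elsewhere, and the highest summed level of the pollen markers, 70305 CPM. As a share of gene reads before scaling, the 8 genes together took 0.327%, 0.289% and 0.281% in paps1-1 and 0.245%, 0.328% and 0.317% in WT, so the genotypes overlapped and WT replicate 3 was within the range of the others. Gene reads include those of the 18S rRNA gene, 10.5% of the total in paps1-1 replicate 2. With library totals alone, which moved the median of all tested genes by 0.17, the log2 fold change of ACT1 was 0.59 and that of ACT12 -0.52, and 0 of the 8 genes were called.

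Per kilobase of annotated exon, ACT12, ACT8 and ACT3 had the lowest means in both genotypes. In paps1-1 the means were 295 ± 53.2 CPM per kb for ACT7, 283 ± 18.3 for ACT2, 229 ± 16.4 for ACT1, 213 ± 40.6 for ACT11, 175 ± 33.2 for ACT4, 80.0 ± 15.8 for ACT12, 71.2 ± 19.0 for ACT8 and 34.8 ± 7.95 for ACT3 (SD, n = 3). In that order ACT2 lay above ACT1, ACT4 above ACT12 and ACT8 above ACT3 without overlap, and the other neighbours overlapped. In WT the means were 414 ± 198 CPM per kb for ACT2, 259 ± 41.7 for ACT11, 253 ± 12.5 for ACT7, 204 ± 38.3 for ACT4, 182 ± 83.6 for ACT1, 129 ± 11.6 for ACT12, 77.0 ± 42.7 for ACT8 and 42.2 ± 12.9 for ACT3 (SD, n = 3), and every pair of neighbours overlapped. Among 32827 genes with an exon length, ACT2 ranked 247 in paps1-1 and 203 in WT by mean CPM per kb, and ACT3 ranked 1918 in paps1-1 and 1754 in WT. Reproductive and vegetative genes were thus interleaved in level.

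The balance of the classes was read from the summed reads of the 5 reproductive over the 3 vegetative genes within each library, a ratio that needs no scaling. It was 1.18, 1.28 and 0.812 in paps1-1 and 1.05, 1.22 and 0.901 in WT. The means of 1.09 ± 0.249 in paps1-1 and 1.06 ± 0.158 in WT (SD, n = 3 each) differed by less than either spread, and the genotypes overlapped. As a share, the reproductive class took 54.2% (95% Clopper-Pearson interval 53.7 to 54.6), 56.2% (55.4 to 57.1) and 44.8% (44.4 to 45.2) of actin reads in paps1-1. In WT it took 51.3% (50.9 to 51.7), 54.9% (54.4 to 55.3) and 47.4% (47.0 to 47.8). These intervals cover counting error only, and replicates of 1 genotype differed by far more than them.

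In the library with the lowest ratio of each genotype, a different vegetative gene had a high share. In paps1-1 replicate 3, ACT7 took 24.1% of actin reads, against 17.2% and 16.3% in the other paps1-1 libraries. That library also had the highest summed level of 8 photosynthesis markers, 366 CPM against 82.8 to 121 CPM in the other 5. In WT replicate 3, ACT2 took 36.2%, against 27.7% and 25.8% in the other WT libraries. That library had the lowest summed level of the style markers, 22.5 CPM. The part of these markers in the ratio was not tested. The log2 ratio of the summed pollen to the summed style markers was 9.63, 9.94 and 10.2 in paps1-1 and 10.7, 9.98 and 11.6 in WT. WT replicate 3, the library with the highest ratio of these sums, had the second lowest actin class ratio. A few genes made up most of both sums in that library. VGD1 stood at 52270 of 70305 CPM of the pollen sum. SPT and NGA3 stood at 11.7 and 5.61 of 22.5 CPM of the style sum.

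**Figure D2:**
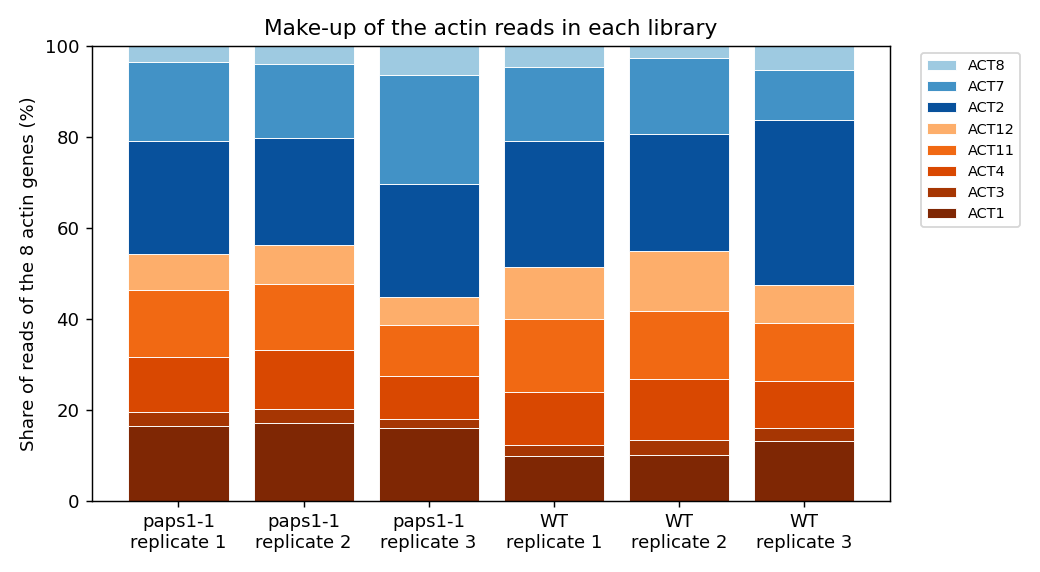
Share of each gene among the reads of the 8 actin genes (y axis, %) in the 3 paps1-1 and the 3 WT libraries, with reproductive genes in orange and vegetative genes in blue. The ACT1 segment is 15.9% to 17.1% in paps1-1 and 9.80% to 13.1% in WT, while the border between the classes lies between 44.8% and 56.2%.

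Although the class sums overlapped, the shares of ACT1 and ACT2 did not, ACT1 being higher and ACT2 lower in paps1-1. The shares of the other members overlapped. Shares of the same total depend on each other, and no background was computed for them. ACT1 took 16.4%, 17.1% and 15.9% of actin reads in paps1-1 and 9.80%, 10.1% and 13.1% in WT. ACT12 took 7.76%, 8.67% and 6.15% in paps1-1 and 11.4%, 13.2% and 8.24% in WT, and its ranges overlapped between genotypes. The ratio of ACT1 to ACT12 reads was 2.12, 1.97 and 2.58 in paps1-1 and 0.856, 0.765 and 1.58 in WT. All paps1-1 libraries lay above all WT libraries. The ratio of ACT4 to ACT12 was 1.55, 1.49 and 1.53 in paps1-1 and 1.01, 1.01 and 1.27 in WT, again without overlap, while the ratio of ACT4 to ACT11 was 0.846 ± 0.0413 in paps1-1 and 0.808 ± 0.0822 in WT (SD, n = 3 each) and overlapped.

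The ratio of ACT1 to ACT2 varied least within a genotype relative to the distance between genotypes. It was 0.656, 0.730 and 0.640 in paps1-1 and 0.354, 0.390 and 0.361 in WT, although ACT2 alone ran from 709 to 1553 CPM among the WT libraries. Its mean difference on the log2 scale was 0.87, between 0.82 and 0.92 with each library left out. The difference for ACT1 to ACT12 was 1.13, between 0.92 and 1.45.

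These pairs were picked out after all 28 pairs of members had been computed, and no test was made of them. Groups did not overlap in 11 of the 28 pairs, or 39.3%, and 19.9% of all pairs among tested genes of mean log2 CPM of at least 5 had groups that did not overlap. The 28 pairs share their genes: ACT1 and ACT12 each took part in 5 of the 11 and ACT8 in 0. A ratio within a library describes the balance of 2 genes in these libraries. It does not say which of the 2 differed, and whether the genotypes differ in it was not tested.

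**Figure D3:**
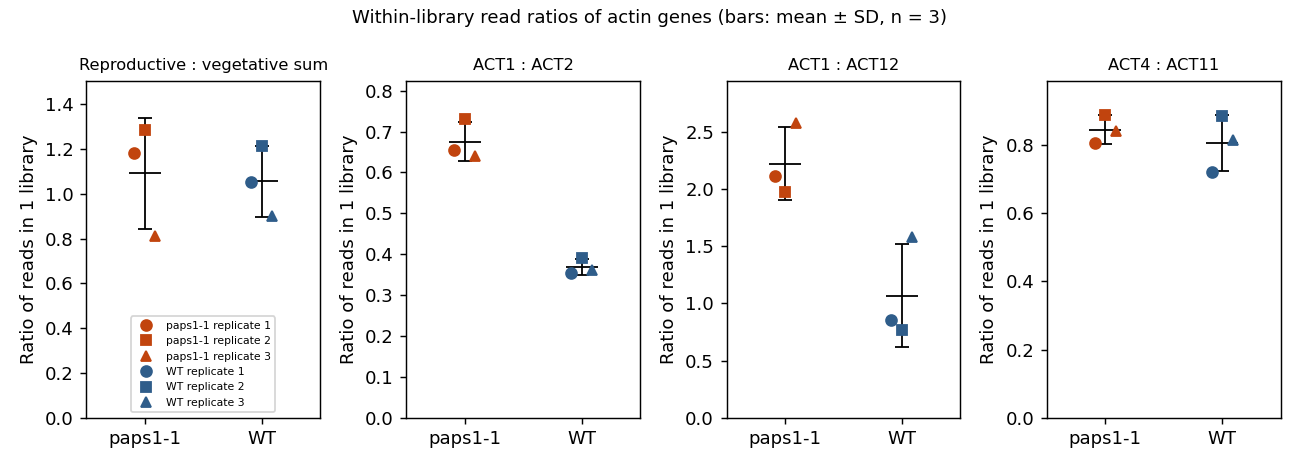
Ratio of reads within each library (y axes, no unit, each from 0) for the class sums, ACT1 to ACT2, ACT1 to ACT12 and ACT4 to ACT11, with paps1-1 left of WT and bars for the mean ± SD of 3 libraries. The genotypes overlap in the class ratio and in ACT4 to ACT11, and do not overlap in the other panels.

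Other genes of the actin cytoskeleton were read from lists of 78 genes, of which 74 were tested. Of these, 1 was called lower and 0 higher in paps1-1 (edgeR, at the same threshold), beside 1.18% lower and 1.16% higher over all tested genes. The median log2 fold change was 0.07, beside 0.03 over all tested genes, with 29 negative and 45 positive. The called gene was XI-E, a class XI myosin known from pollen, one of the motors that move organelles along actin filaments.

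XI-E stood at 47.2, 44.7 and 30.7 CPM in paps1-1 and at 73.6, 80.5 and 104 CPM in WT. Its log2 fold change was -1.08 (SE 0.26), past the threshold by edgeR with an adjusted p of 0.0423. The adjusted p ranged from 0.00453 to 0.215 over the alternatives, and the call was lost when any library other than WT replicate 1 was left out. The myosin gene XI-B stood at 245, 356 and 227 CPM in paps1-1 and at 516, 502 and 665 CPM in WT, without overlap, and did not pass (log2 fold change -1.02, SE 0.30, adjusted p = 0.118, edgeR). It was called by DESeq2 (adjusted p = 0.00622) and by edgeR with no filter on low counts (adjusted p = 0.0494), and its adjusted p ranged up to 0.420 over the alternatives. Of 13 myosin XI genes tested, 8 had positive and 5 negative log2 fold changes.

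None of 9 formins, which start and elongate filaments, was called (edgeR). AFH7 and AFH5 had the smallest p, with log2 fold changes of -0.61 (SE 0.26) and -0.49 (SE 0.26). AFH5 stood at 41.5 ± 5.24 CPM in paps1-1 and at 58.2 ± 15.3 CPM in WT (SD, n = 3 each). Of 11 genes of the ARP2/3 complex, which starts branched filaments, and its SCAR/WAVE activator, 0 were called, and the summed level was 38.3 to 45.1 CPM in paps1-1 and 40.8 to 47.2 CPM in WT. ARPC4 and ARPC3 had the smallest p there, with log2 fold changes of 0.66 (SE 0.37) and -0.43 (SE 0.31).

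Of 17 tested genes for monomer binding and turnover, 0 were called. They code for profilins, which bind actin monomers, ADF proteins, many of which sever filaments, and their partners. The profilin gene PRF5 stood at 278, 336 and 297 CPM in paps1-1 and at 92.1, 135 and 297 CPM in WT (log2 fold change 0.80, SE 0.37, adjusted p = 0.477, edgeR). As with ACT1, the WT libraries other than replicate 3 lay below all paps1-1 libraries, and without WT replicate 3 PRF5 was called (1.39, adjusted p = 0.0191, edgeR). Without WT replicate 1 it was 0.49 (adjusted p = 0.774), and without WT replicate 2 it was 0.64 (adjusted p = 0.565, edgeR). ADF8 was low, at 2.47 ± 0.115 CPM in paps1-1 and 1.45 ± 0.522 CPM in WT (SD, n = 3 each), without overlap, and did not pass (log2 fold change 0.79, SE 0.37, adjusted p = 0.487, edgeR).

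Villins and fimbrins, which bundle or sever filaments, had 9 tested genes and 0 called. VLN5, a pollen villin, stood at 131 ± 13.8 CPM in paps1-1 and 179 ± 25.7 CPM in WT (log2 fold change -0.45, SE 0.26), and VLN1 had a log2 fold change of 0.42 (SE 0.31). Of 9 subunit genes of the CCT chaperonin, which folds actin, 8 were positive and 0 called, with 0.55 (SE 0.27) for CCT6B and 0.31 (SE 0.28) for CCT3. Of 6 tested actin-like and actin-related genes outside the ARP2/3 complex 0 were called, with log2 fold changes of 0.40 (SE 0.34) for ARP6 and 0.18 (SE 0.31) for ARP9. By edgeR, 4 of the 74 genes had an unadjusted p under 0.05, or 5.41%, beside 10.3% over all tested genes.

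**Figure D4:**
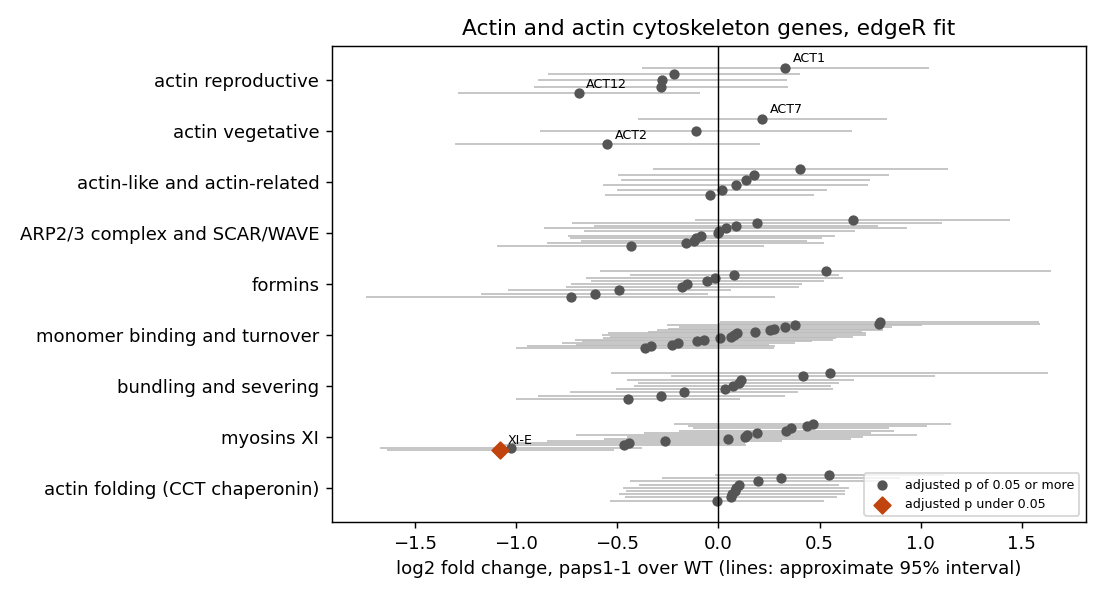
Log2 fold change of paps1-1 over WT (x axis) for the tested genes of both actin classes and of 7 lists of actin cytoskeleton genes, with approximate 95% intervals as lines. XI-E, drawn as a diamond at -1.08, is the 1 gene with an adjusted p under 0.05, and all 8 actin genes are drawn as not called.

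Genes whose level followed each class sum most closely over the 6 libraries were sought among 3474 other genes of mean log2 CPM of at least 5, by the root-mean-square difference of centred log2 CPM. For the reproductive sum, at 1588, 1569 and 1193 CPM in paps1-1 and 1367, 1508 and 2032 CPM in WT, these were ALA3, a phospholipid flippase (0.0545), the protein kinase gene MHK (0.0593) and ACLA-1, a subunit of ATP citrate lyase (0.0595). For the vegetative sum, at 1344, 1222 and 1470 CPM in paps1-1 and 1298, 1240 and 2256 CPM in WT, they were ATRBP45C, an RNA-binding protein gene (0.0204), AT4G03420 (0.0580) and AT4G14500 (0.0627). All 6 genes had their highest level in WT replicate 3, as both sums did. The likeness is a description of 6 libraries that share their scaling, with no test.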

How the data were processed

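RNA from pieces of style with pollen tubes was extracted with a PicoPure kit, including a DNase step, and mRNA libraries were sequenced on an Illumina HiSeq2000, per the labels' protocols. STAR and the TAIR10 genome are named in the submitters' processing notes; no version, annotation or setting was given in the sources used here. The authors deposited raw read counts per gene, 1 table per library, with strand ignored and for each strand. The ratio of both strand totals was 1.02 to 1.07. The counts with strand ignored were therefore used, and reads of an overlapping antisense gene cannot be told apart.

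Lines that name no gene stayed out of library sizes. Low counts were filtered with edgeR 4.0.16 (filterByExpr, minimum count 10, R 4.3.3), and libraries were scaled by TMM and compared with the quasi-likelihood test (glmQLFit, glmQLFTest, two-sided) over 18317 genes, with 0.05 as the threshold for the Benjamini-Hochberg adjusted p of a called gene. The scripts were tested on simulated data with 3 libraries a group. Of 100 genes changed 2-fold there, 30% were called, and of 100 changed 4-fold, 97%. The changed genes were drawn only from tested genes above a set mean level, so these rates do not cover genes of low level. Of 139 calls, 12 were false. Intervals of fold changes are approximate, from the SE and the fit's degrees of freedom. Exon lengths and sequences came from the RefSeq annotation and genome of TAIR10.1, whose name differs from the TAIR10 of the counts. Of the gene identifiers, 32835 matched.

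Members and lists were chosen with earlier results of these data known. By rule the text may name the 8 members, PAPS1, each called gene and the 2 of smallest p per cytoskeleton list, the 2 most abundant genes per marker list, and 3 genes per class by likeness. The pairs of actin genes, the shares of ACT1 and ACT2, and HEC1, HEC2 and DAZ2 were named after their values were seen. Alternatives were other scalings, DESeq2 1.42.0, limma-voom (limma 3.58.1), other filters, the strand with the larger total, libraries left out and a replicate block.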

Additional observations from a re-analysis of the deposited data

How the results depend on the processing

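Every actin count, 395 reads or more, lay far above the floor of 3 reads. No actin gene was called under any of the 16 alternatives, 15 of them planned. The log2 fold changes of ACT1, ACT2, ACT3, ACT4, ACT7, ACT11 and ACT12 kept their sign under all of them, and that of ACT8 (-0.11) did not: it was 0.18 with library totals alone, 0.0060 with the replicate number as a block, 0.47 without WT replicate 3 and paps1-1 replicate 2 together, and -0.43 to 0.37 with each library left out. ARP9 was -0.075 without that pair, against 0.18. The count of genes called, 429, was 1042 with no filter, 216 with at least 5 CPM in 3 libraries and 237 without that pair, where fewer samples were fitted. The count of called cytoskeleton genes, 1, was 2 by DESeq2 and with no filter, which added XI-B, and 0 with library totals alone, with at least 5 CPM, with the block, without that pair, and 0 to 1 with each library left out. The cause of these moves was not tested further. The difference in the log2 class ratio, paps1-1 minus WT, was 0.03 and ran from -0.31 (without ACT2, chosen after seeing the data, as were library totals alone, division by exon length and the sum without ACT1) to 0.23. Each alternative moved it by less than the SD of the paps1-1 libraries, 0.35, but the sum without ACT2 and leaving out WT replicate 3 with paps1-1 replicate 2 (-0.21) moved it by more than the SD of the WT libraries, 0.22. The replicate numbers did not pair the libraries: same-numbered libraries had correlations of their deviations of -0.32, 0.14 and -0.18, and 1 of 3 paps1-1 libraries correlated best with its own number. The block gave 482 calls in place of 429.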
